A study of Mus musculus with 6 samples.

Results

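Proteasome genes were followed in the livers of FRG mice, the mouse model of hereditary tyrosinemia type 1, with and without the drug NTBC. Members were the genes whose array probe sets carry 1 gene symbol that starts with Psm, a letter from a to g and a digit. The rule found 49 genes on 103 probe sets, of 18193 genes and 45037 probe sets in all. Of these, 47 genes on 100 probe sets are subunits, regulators or assembly factors of the proteasome. The other 2 matches carry the name without being a proteasome part: Psmc3ip, a meiotic recombination factor, and Psme3ip1, which binds the activator subunit Psme3. They are counted apart. Psme2 shares its only probe set with Psme2b in the array annotation and was not analysed here. Each gene is given at its brightest probe set, judged by the mean of its log2 intensities on the 6 arrays.

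All 6 mice were male FRG mice on the C57Bl/6J background, which carry knockouts of Fah, Rag2 and Il2rg, and were 12 weeks old at sampling. The 3 FRG+NTBC mice received NTBC at 16 mg/L in the drinking water throughout, while the 3 FRG-7dNTBC mice had been without it for 7 days, and all were kept on chow low in tyrosine and phenylalanine. Fah is the last enzyme of tyrosine breakdown, and NTBC blocks a step upstream of it. Mice that lack Rag2 and Il2rg are known to lack mature T, B and NK cells, which limits these livers as a model of the disease in an immune-competent host, although the study's histology noted small lymphoid cells after withdrawal. Total RNA of each liver was read on its own Affymetrix mouse genome array, and the comparison asks what changes in the liver when treatment stops. In whole liver, a change in the number of cells of a type and a change in RNA per cell cannot be told apart.

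The proteasome is the protease complex that degrades proteins tagged with ubiquitin. Its core is a barrel of stacked rings. The outer rings hold alpha subunits, which control entry, and the inner rings hold beta subunits, of which Psmb5, Psmb6 and Psmb7 cut the substrate. A regulatory particle sits on the barrel. Its base holds ATPases that unfold the substrate, and its lid removes the ubiquitin chain. In immune cells and after interferon, the catalytic subunits Psmb8, Psmb9 and Psmb10 replace Psmb5, Psmb6 and Psmb7 and form the immunoproteasome, which favours peptides for antigen presentation. The transcription factors NRF1 (gene Nfe2l1) and NRF2 (gene Nfe2l2) are known to act on proteasome genes through antioxidant response elements.

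Promoter sequence was read from RefSeq windows of build GRCm38.p6 that run from 250 bases before to 50 bases after a transcript start, and 39 of the 47 genes had one. The 8 genes without one were Psma8, Psmb1, Psmb2, Psmb7, Psmc3, Psmd3, Psmd7 and Psmg2. Shown here are the bases just before the start of the catalytic subunits with a window, and of Psmd9, which holds the core of an antioxidant response element near its start and whose probe sets disagreed. Capitals mark matches on either strand to 4 motifs, which are that core (TGACNNNGC), the CCAAT box (CCAAT), the interferon-stimulated response element (GAAA, any 2 bases and GAAA again) and the STAT site (TTCNNNGAA, which reads the same on both strands). None of these motifs overlaps another in the sequences printed. Psmb6 is shown for 30 bases because the annotated gene already covers that stretch.
Psmb5, chr14:54617996-54618095, minus strand: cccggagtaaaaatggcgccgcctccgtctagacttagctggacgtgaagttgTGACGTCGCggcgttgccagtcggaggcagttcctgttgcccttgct
Psmb6, chr11:70525327-70525356, plus strand: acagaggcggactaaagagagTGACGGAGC
Psmb8, chr17:34198095-34198194, plus strand: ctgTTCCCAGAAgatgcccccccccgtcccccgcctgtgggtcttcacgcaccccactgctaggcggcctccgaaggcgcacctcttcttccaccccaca
Psmb9, chr17:34187331-34187430, minus strand: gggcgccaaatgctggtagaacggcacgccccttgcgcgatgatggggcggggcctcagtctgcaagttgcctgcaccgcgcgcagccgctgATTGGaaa
Psmb10, chr8:105938393-105938492, minus strand: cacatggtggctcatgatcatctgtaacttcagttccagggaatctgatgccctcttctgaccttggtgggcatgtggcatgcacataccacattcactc
Psmd9, chr5:123228090-123228189, plus strand: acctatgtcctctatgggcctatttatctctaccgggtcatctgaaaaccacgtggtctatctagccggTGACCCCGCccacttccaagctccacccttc

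The constitutive catalytic genes Psmb5 and Psmb6 held the antioxidant response element core in these windows, beginning 47 and 9 bases before the start, and Psmb8, Psmb9 and Psmb10 did not. Over the whole windows the core was also found in Psmc6, Psmd12, Psme4 and Psmd9. That is 6 of 41 member windows (14.6%), against 12.4% of all 32851 windows. The CCAAT box was found in 34.1% of member windows against 37.4% of all, the interferon-stimulated response element in 5 member windows (12.2%) against 3.44%, and the STAT site in 3 (7.32%) against 8.30%. The interferon element was found in Psmb3, Psmd4, Psmd9, Psme1 and Psmg4, and in no immunoproteasome gene. A match is a description of letters and not a binding site.

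Proteasome genes were higher in FRG-7dNTBC livers across the core, the lid, the base, the activators and the assembly chaperones, while none of the 3 immunoproteasome genes passed. Of the 47 genes, 30 (63.8%) passed limma on the higher side at an adjusted p under 0.05 and none passed on the lower side, while 17 did not pass. Among all 18193 genes, 17.4% were called higher and 12.7% lower. The median log2 fold change was 0.86 over the 47 genes (1.82-fold), with a range from -0.52 to 2.21, against -0.05 over all genes. Of the 47 genes, 20 passed and were at least 2-fold higher, Psmd4 lying at that threshold, and none passed 2-fold lower, against 8.94% and 4.95% of all genes. In 34 of the 47 genes every FRG-7dNTBC mouse lay above every FRG+NTBC mouse, and in 3 every one lay below. Over all genes this was so in 22.8% and 23.4%. Members are mostly bright, and after leaving out dim probe sets 32 of the remaining 45 members were higher, against 26.3% of genes.

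**Figure D1:**
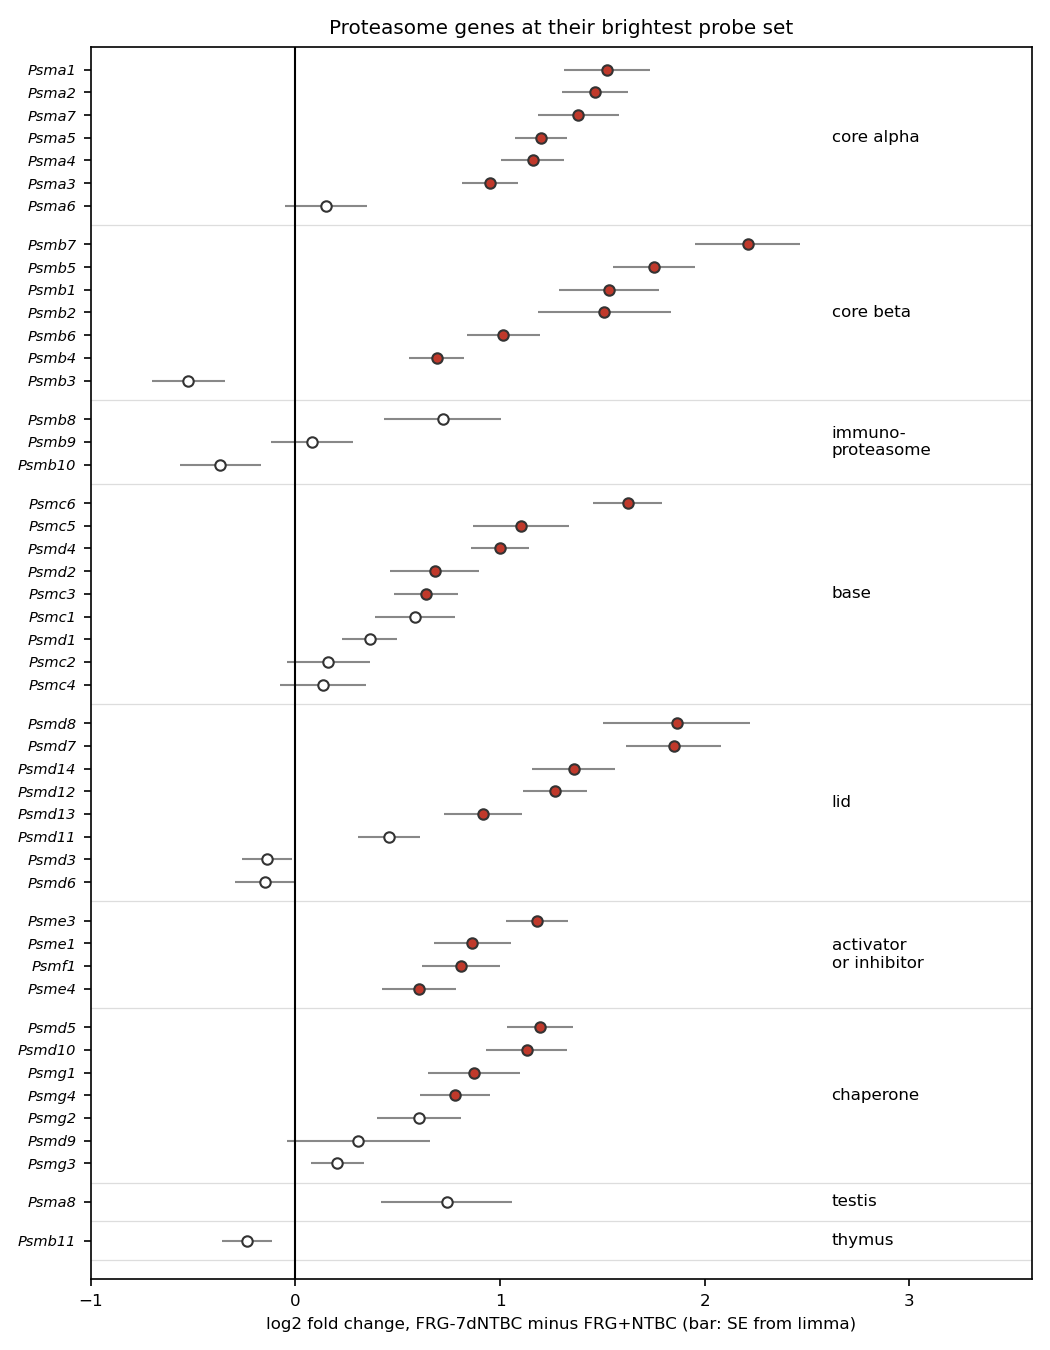
Horizontal axis, log2 fold change of withdrawal over treatment of the 47 proteasome genes at their brightest probe set, grouped by role, 1 point per gene with its standard error from limma (n = 3 mice per group). Red points passed at an adjusted p under 0.05 and white points did not: 30 are red, all to the right of 0, and the 3 immunoproteasome genes are white.

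Median intensity over all probe sets was 35.3 to 36.5 on the FRG+NTBC arrays and 33.1 to 34.3 on the FRG-7dNTBC arrays, so every withdrawal array lay below every treated one. The lowest correlation of log2 values between arrays of a group was 0.988 in FRG+NTBC and 0.980 in FRG-7dNTBC livers. Of 4 measured hepatocyte markers, Alb, Apoa1 and Ttr lay near the top of the scale and did not pass, while the transcription factor gene Hnf4a fell by 0.50 (log2, limma adjusted p = 0.0225). With every array scaled to a common 75th percentile, the median change of all genes moved by -0.13 (log2), and the share of called genes on the higher side went from 57.7% to 42.8%. The members moved with it, and 28 of them were then higher and 1, Psmb3, was lower, against 14.7% and 19.6% of all genes. Macrophage markers differed between the groups, with 7 of 11 higher, against 17.4% of all genes. Their summed intensity was 2055 to 3375 in FRG+NTBC and 2975 to 6904 in FRG-7dNTBC livers. Without FRG-7dNTBC replicate 1, 2 of the 11 were higher, and without FRG+NTBC replicate 1 or 2 it was 3. None of 7 neutrophil, 6 dendritic and class II or 8 lymphocyte markers passed, and the summed intensity of the lymphocyte markers was 303 to 332 in FRG+NTBC and 298 to 305 in FRG-7dNTBC livers. Single lymphocyte markers ranged from Cd3g, at 7.67 to 10.5, to Cd8a, at 90.5 to 108, so some read above the array median. The part of macrophages in the proteasome changes was not tested. All values that follow are intensities per mouse, in the order of replicates 1, 2 and 3, and log2 fold changes set FRG-7dNTBC over FRG+NTBC livers. A median change is the median of these log2 fold changes.

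In the alpha ring, 6 of 7 genes were higher, the median change being 1.20. Psma1 read 534, 657 and 873 in FRG+NTBC and 1808, 2385 and 1687 in FRG-7dNTBC livers, and rose 2.87-fold (log2 fold change 1.52 with SE 0.21, limma adjusted p = 0.00141). Psma2 read 1193, 873 and 1098, then 3083, 3104 and 2504 (1.46, SE 0.16). Each withdrawal mouse lay above each treated mouse for both genes, with the lowest withdrawal value still far above the highest treated one. Psma5 read 1305, 1193 and 1168, then 3019, 2557 and 2856 (1.20, SE 0.13). Psma7 read 803, 676 and 792, then 1675, 2684 and 1698 (1.38, SE 0.20), with replicate 2 well above the other two. Psma4 read 1389, 989 and 1090, then 2574, 2684 and 2419 (1.16, SE 0.15), and Psma3 rose by 0.95. Psma6 was the exception at its brightest probe set, at 4545, 3984 and 4360 against 4939, 3541 and 6165 (0.15, SE 0.20, adjusted p = 0.621 from limma), where the groups overlapped.

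In the beta ring, 6 of 7 constitutive genes were higher, the median change being 1.51. Psmb7, the trypsin-like catalytic subunit, had the largest change of all members. It read 261, 234 and 315 in FRG+NTBC and 1269, 1771 and 849 in FRG-7dNTBC livers, a 4.63-fold rise (log2 fold change 2.21 with SE 0.26, limma adjusted p = 0.000659). Psmb5, the chymotrypsin-like subunit and the main target of proteasome inhibitor drugs, read 1193, 750 and 1060, then 3591, 3641 and 2778, and rose 3.37-fold (1.75, SE 0.20, adjusted p = 0.000603). Psmb6, the caspase-like subunit, read 2241, 1468 and 1629, then 3666, 3795 and 3191, and rose 2.02-fold (1.02, SE 0.18, adjusted p = 0.00409). So all 3 constitutive catalytic genes were higher, without overlap between the groups. The structural subunit Psmb1 read 776, 458 and 666, then 1833, 2288 and 1370 (1.53, SE 0.25), and Psmb2 read 375, 251 and 296, then 1075, 1201 and 498 (1.51, SE 0.32). For Psmb2, replicate 3 after withdrawal stood nearer to the treated mice than to its own group. Psmb4 rose by 0.69, from 2778, 2628 and 2539 to 3848, 4096 and 4939. Psmb3 read 4153, 3517 and 3304, then 2876, 1992 and 2837 at its brightest probe set (-0.52, SE 0.18, adjusted p = 0.0621), and its other probe set differed.

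The 3 immunoproteasome genes had a median log2 fold change of 0.08 and none passed, a count too small to set them apart from the 17.4% of all genes called higher. Psmb8, the inducible counterpart of Psmb5, read 198, 170 and 212 in FRG+NTBC and 388, 428 and 193 in FRG-7dNTBC livers (log2 fold change 0.72 with SE 0.29, limma adjusted p = 0.0998). Replicates 1 and 2 lay above all treated mice, and replicate 3 lay within their range. Without FRG-7dNTBC replicate 3 Psmb8 passed, at 1.08 (adjusted p = 0.00166), as it did with array weights, at 0.90 (adjusted p = 0.0150). Psmb9, the counterpart of Psmb6, read 116, 96.3 and 120, then 153, 113 and 91.8 (0.08, SE 0.20, adjusted p = 0.80), and the groups overlapped. Psmb10, the counterpart of Psmb7, read 302, 326 and 331, then 294, 286 and 181 (-0.37, SE 0.20, adjusted p = 0.206), with every withdrawal mouse below every treated mouse. Psmb8 and Psmb9 lie beside the peptide transporter genes Tap1 and Tap2 within the major histocompatibility locus on chromosome 17. Those neighbours did not pass either, with Tap1 at 0.16 and Tap2 at 0.37.

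**Figure D2:**
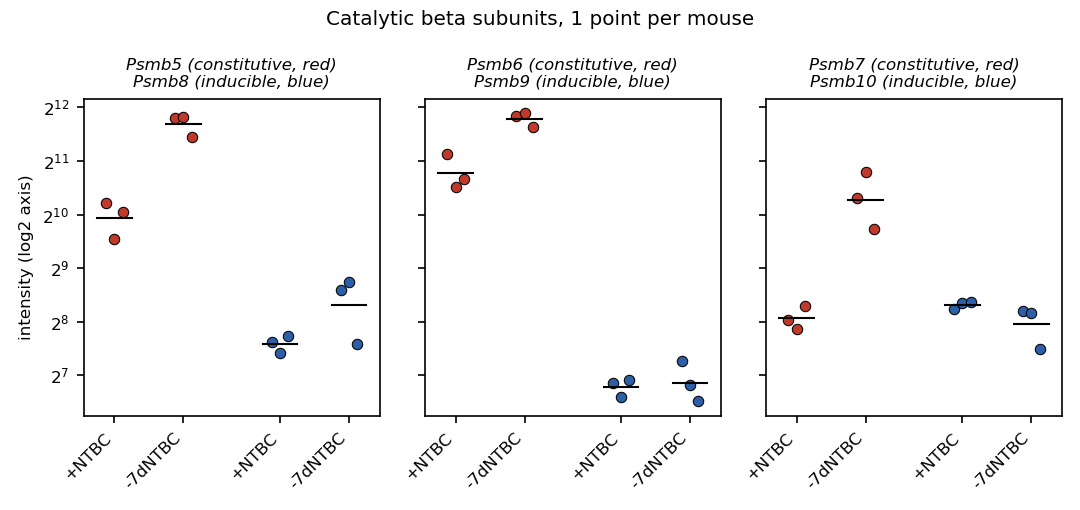
Intensity (vertical axis, log2 scale) of the constitutive catalytic subunits (red) and their inducible counterparts (blue), 1 point per mouse, with the mean of the log2 values as a line. Psmb5, Psmb6 and Psmb7 separate the groups, while Psmb8 and Psmb9 overlap, and the Psmb10 points after withdrawal lie below those under treatment in a comparison that did not pass.

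Each inducible gene was set against the constitutive gene whose place it takes, as a log2 difference within each array. The ratio of 2 probe sets shows unequal change and not a ratio of amounts. Psmb8 minus Psmb5 was -2.59, -2.14 and -2.32 in FRG+NTBC and -3.21, -3.09 and -3.85 in FRG-7dNTBC livers, so the inducible gene changed by -1.03 relative to its counterpart. For Psmb9 minus Psmb6 the difference was -0.94, and for Psmb10 minus Psmb7 it was -2.58, from 0.21, 0.48 and 0.07 to -2.11, -2.63 and -2.23. In all 3 pairs every withdrawal mouse lay below every treated mouse. The two-sided exact permutation test gave p = 0.1 for each pair (adjusted p = 0.1 over 3 pairs), which is the smallest that 3 mice against 3 can give.

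In the base, 5 of 9 genes were higher, the median change being 0.64. The ATPase gene Psmc6 read 402, 313 and 431 in FRG+NTBC and 1038, 1361 and 1121 in FRG-7dNTBC livers (1.62, SE 0.17, adjusted p = 0.000412 from limma). Psmc5, another ATPase of the ring, read 885, 592 and 653, then 1734, 1808 and 1082 (1.10, SE 0.24). The ubiquitin receptor gene Psmd4 read 1520, 1342 and 1361, then 2817, 3236 and 2436 (1.0, SE 0.14, adjusted p = 0.00163). The ATPase gene Psmc3 rose by 0.64, a call lost without treated mouse 1 or 2 or withdrawal mouse 1, and the scaffold subunit gene Psmd2 rose by 0.68. The call of Psmd2 stood at the threshold (adjusted p = 0.0492) and was lost without any one of 5 of the 6 mice, the exception being FRG-7dNTBC replicate 3. Psmc1 (0.58, adjusted p = 0.0599) and Psmd1 (0.36, adjusted p = 0.0794) did not pass although the groups did not overlap. Psmc2 (0.16) and Psmc4 (0.13, SE 0.21, the smallest change of the base) overlapped at their brightest probe sets, with Psmc4 at 2937, 2487 and 2304, then 2798, 2135 and 3717.

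In the lid, 5 of 8 genes were higher, the median change being 1.09. Psmd8 read 523, 695 and 843 in FRG+NTBC and 2034, 4451 and 1629 in FRG-7dNTBC livers (1.86, SE 0.36, adjusted p = 0.00633 from limma), the rise being largest in replicate 2. Psmd7 read 242, 286 and 313, then 1031, 1370 and 719 (1.85, SE 0.23, adjusted p = 0.000900). Its partner Psmd14, the enzyme that cuts the ubiquitin chain from the substrate, read 776, 861 and 1314, then 2241, 2487 and 2665 (1.36, SE 0.20, adjusted p = 0.00200). Both members of that pair thus separated the groups. Psmd12 read 729, 516 and 588, then 1361, 1438 and 1585 (1.27, SE 0.16), and Psmd13 rose by 0.92. The remaining genes did not pass at their brightest probe sets. Psmd3 read 630, 750 and 734, then 648, 617 and 648 (-0.14, SE 0.12, adjusted p = 0.442), the smallest change of the lid, and it has a single probe set. Psmd6 stood at -0.15 and Psmd11 at 0.46 (adjusted p = 0.0555).

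All 4 measured activators and inhibitors of the core were higher, the median change being 0.84. Psme3, the subunit of a nuclear activator, read 185, 146 and 191 in FRG+NTBC and 383, 360 and 437 in FRG-7dNTBC livers (1.18, SE 0.15, adjusted p = 0.000986 from limma). Psme1, a subunit of the activator induced by interferon, read 1596, 1184 and 1342, then 2798, 2817 and 1938 (0.86, SE 0.19, adjusted p = 0.0112). Its call was lost without FRG+NTBC replicate 2. Psmf1, first described as a proteasome inhibitor, read 261, 280 and 311, then 564, 584 and 372 (0.81), and its call was lost without treated mouse 1 or 2 or withdrawal mouse 1. Psme4, a large monomeric activator, read 1067, 1531 and 1641, then 1898, 2195 and 2257 (0.60, SE 0.18, adjusted p = 0.0414), the smallest change here. Its call was kept without FRG+NTBC replicate 3 and lost without any of the other mice.

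Among assembly chaperones, 4 of 7 genes were higher, the median change being 0.78. The base chaperones Psmd5 and Psmd10 had the largest changes. Psmd5 read 304, 343 and 365 in FRG+NTBC and 843, 867 and 626 in FRG-7dNTBC livers (1.20, SE 0.16, adjusted p = 0.00126 from limma). Psmd10, also known as gankyrin, read 81.6, 84.5 and 85.6, then 159, 254 and 153 (1.13, SE 0.20, adjusted p = 0.00427). Of the factors that build the core, Psmg1 rose by 0.87 and Psmg4 by 0.78, while Psmg2 (0.60, adjusted p = 0.0606) did not pass. The call of Psmg1 was kept in 2 of the 6 fits that leave out a mouse, those that drop treated mouse 1 or withdrawal mouse 3, and was lost after quantile normalization. That of Psmg4 was lost when treated mouse 2 or withdrawal mouse 1 was dropped. Psmg3, the smallest change, read 402, 383 and 461, then 474, 512 and 446 (0.20, SE 0.13, adjusted p = 0.287). The base chaperone Psmd9 read 220, 265 and 263, then 276, 560 and 187 (0.31, SE 0.35, adjusted p = 0.556), and replicate 2 alone lay above the treated mice by a wide margin.

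Subunits known from other tissues stayed near the bottom of the scale. The testis subunit Psma8 read 16.9, 16.2 and 18.8, then 20.7, 51.6 and 22.5 (0.74, adjusted p = 0.126 from limma). The thymus subunit Psmb11 read 23.6, 26.9 and 24.4, then 22.2, 20.0 and 21.4 (-0.24, adjusted p = 0.186). Neither passed, and neither did Psmc3ip (-0.16) or Psme3ip1 (0.27).

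The rise differed between mice of the withdrawal group. Of the 30 genes called higher, FRG-7dNTBC replicate 2 had the highest value in 22 and replicate 3 the lowest in 21. These genes share the same arrays and are not independent counts. The order of the mice was not counted over all genes, so it is not shown to be particular to proteasome genes. Relative to the FRG+NTBC mean, the median over the constitutive subunits of core, base and lid was 1.07 in replicate 1, 1.20 in replicate 2 and 0.87 in replicate 3, while the FRG+NTBC mice lay between -0.11 and 0.09. For the beta ring these medians were 1.57, 1.89 and 0.90, and for the immunoproteasome 0.47, 0.03 and -0.27. Every withdrawal mouse thus lay above the treated mice for the constitutive subunits. For the immunoproteasome the treated mice lay between -0.18 and 0.12, with withdrawal replicate 1 above, replicate 2 within and replicate 3 below that range. Leaving out 1 mouse at a time left 23 to 33 of the 47 genes higher, and 23 of the 30 calls held in all 6 of these fits. In these fits 12.3% to 18.0% of all genes were higher. Without moderation of the variances 17 genes were called, and 9.15% of all genes were then higher.

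The brightest probe set was not always the one that changed. Of the 26 members with over 1 probe set, 7 did not pass at the brightest and were higher at another: Psma6, Psmb3, Psmc2, Psmc4, Psmd6, Psmd11 and Psmg2. Psma6 read 437, 407 and 564 in FRG+NTBC and 1734, 2504 and 1520 in FRG-7dNTBC livers at such a probe set (log2 fold change 2.01 with SE 0.21, limma adjusted p = 0.000441). Psmb3 read 680, 383 and 405, then 2165, 2180 and 1252 (1.94, SE 0.29, adjusted p = 0.00187), so its probe sets pointed in opposite directions, although the lower one did not pass. Psmc2 read 798, 580 and 719, then 2226, 1885 and 1389 (1.38, SE 0.20). The change was 0.97 for Psmc4, 0.73 for Psmd6, 1.59 for Psmd11 at the probe set with the lowest p and 1.82 for Psmg2. The Psmg2 probe set was dim, at 37.5, 44.9 and 59.3, then 175, 362 and 70.0 (SE 0.51, limma adjusted p = 0.0320). Its replicate 3 after withdrawal lay only slightly above the treated mice. In the array's naming, probe sets with the suffix x_at or s_at can match several transcripts, and those with a_at match several transcripts of 1 gene. The brightest probe set had x_at for Psma6 and Psmc2, s_at for Psmd11 and a_at for Psmb3, Psmc4 and Psmd6, but it had no such suffix for Psmg2. Counting a gene by any probe set, 37 of the 47 were higher somewhere. A gene with more probe sets has more chances to pass, and over all 100 member probe sets 46 were higher and 3 lower, against 14.0% and 13.9% of all probe sets.

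**Figure D3:**
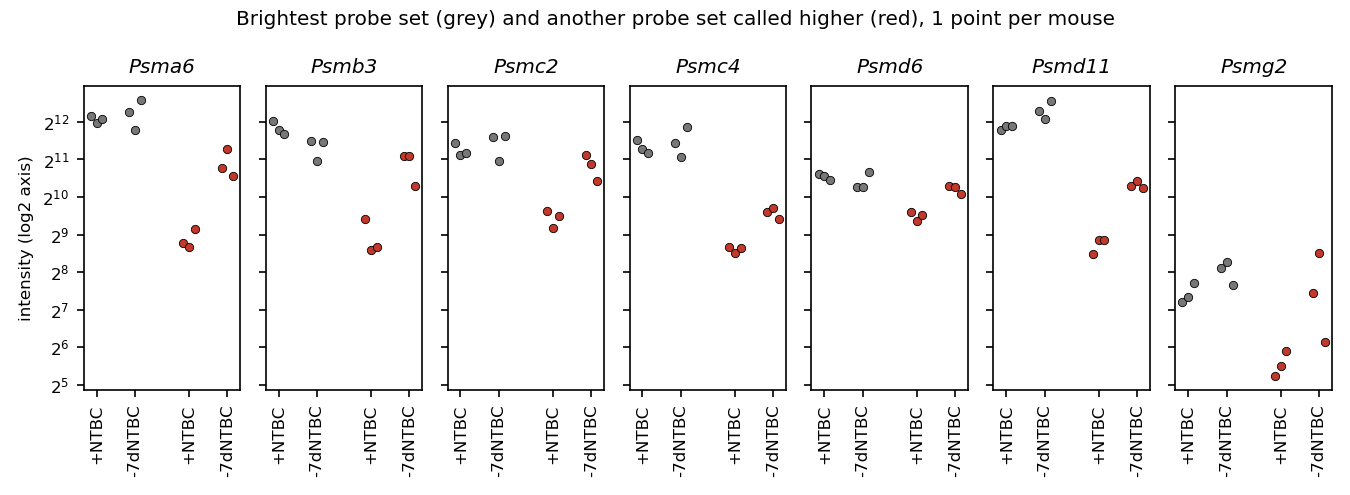
Intensity (vertical axis, log2 scale) per mouse at the brightest probe set (grey) and at the probe set called higher with the lowest p (red) of the 7 genes whose brightest probe set did not pass. The grey points overlap between the groups for Psma6, Psmc2, Psmc4, Psmd6 and Psmg2, lie lower after withdrawal for Psmb3 and higher for Psmd11, while the red points separate for all 7 genes.

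The 3 probe sets that were lower belong to Psmc6, Psmd13 and Psmd9. Psmc6 read 680, 568 and 776 in FRG+NTBC and 267, 331 and 365 in FRG-7dNTBC livers at a probe set with the suffix s_at (log2 fold change -1.07 with SE 0.17, limma adjusted p = 0.00268), against 1.62 at its brightest. In FRG+NTBC livers this falling probe set was the brighter of the 2, with a mean of 675 against 382. The rising probe set of Psmc6 was therefore picked as brightest through its FRG-7dNTBC values. Psmd13 read 150, 124 and 99.7, then 27.7, 33.1 and 29.9 (-2.03, SE 0.17), against 0.92. Psmd9 read 72.5, 88.7 and 76.6, then 14.3, 12.0 and 23.9 (-2.30, SE 0.25), against 0.31. For Psmc6 and Psmd13 the calls were opposite within 1 gene, so their directions depend on the probe set. Which transcripts these probe sets detect was not tested.

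Genes that work with the proteasome but carry other names rose as well. Of 15 measured partners, 10 were higher and none was lower, against 17.4% and 12.7% of all genes. Their median change was 1.11. Pomp, which the core needs for its maturation, read 1003, 1168 and 1370 in FRG+NTBC and 2539, 2978 and 2150 in FRG-7dNTBC livers (1.11, SE 0.17, adjusted p = 0.00231 from limma). The deubiquitinase gene Uchl5 read 147, 145 and 207, then 530, 849 and 468 (1.86), whereas Usp14, the other deubiquitinase that docks on the base, stood at 0.22 (adjusted p = 0.357). Ubqln2, which ferries ubiquitinated proteins to the proteasome, read 580, 843 and 917, then 2487, 3350 and 3327 (1.98), and the related shuttle genes Rad23b and Ubqln1 rose by 1.24 and 0.84. Zfand5, which stimulates the proteasome, read 1479, 1269 and 1075, then 4837, 4451 and 4905 (1.90). Akirin2, needed to import proteasomes into the nucleus, rose by 1.12, and the proteasome-binding scaffold gene Ecpas by 1.13. The lid subunit gene Sem1 stood at 0.35 (adjusted p = 0.137). Of 5 measured genes of ubiquitin activation and conjugation, 3 were higher and 1 was lower, against the same shares of all genes. Ube2k, Ube2d3 and Ube2n rose by 2.09, 1.64 and 1.46, Ube2r2 fell by 0.99 and Uba6 did not pass.

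Among 14 measured regulators of proteasome genes, 6 were higher and 1 was lower, against 17.4% and 12.7% of all genes. Nfe2l1, the gene of NRF1, read 635, 498 and 556 in FRG+NTBC and 755, 653 and 653 in FRG-7dNTBC livers (log2 fold change 0.29, adjusted p = 0.164 from limma). Nfe2l2, the gene of NRF2, read 383, 488 and 648, then 1287, 1965 and 1520 (1.66, adjusted p = 0.00133). Its small MAF partner genes Maff and Mafk rose by 1.39 and 1.23, Mafg stood at -0.03, and Bach1, a repressor at the same elements, rose by 0.72. The CCAAT-binding factor genes moved apart, as Nfyb rose by 0.78, Nfyc fell by 0.53 and Nfya (0.48) did not pass. The lower call was lost without FRG+NTBC replicate 2. NRF1 is controlled largely after translation, and these arrays measure mRNA alone.

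Lists of interferon-stimulated and class I genes were read beside the immunoproteasome, and their counts stand against 17.4% of all genes called higher and 12.7% lower. Of 15 measured interferon-stimulated genes none was higher and 3 were lower, namely Ifit1 (-1.41), Irf7 (-0.89) and Irf9 (-0.88), and the list's median stood at -0.19 (log2). At an adjusted p of 0.0466 from limma, Ifit1 lay close to the threshold and its groups overlapped. No gene of this list was lower without FRG+NTBC replicate 2 or 3, and 1 was without FRG-7dNTBC replicate 1. Irf1, the interferon-induced factor that acts on Psmb9 and Tap1, read 508, 413 and 419, then 468, 357 and 300 (-0.27, adjusted p = 0.318). Of 11 genes of class I antigen presentation, 3 were higher and 1 was lower. The folding enzyme gene Pdia3 rose by 1.44, the class I gene H2-D1 by 0.84 and the trimming peptidase gene Erap1 by 0.82, while Nlrc5, the transactivator of class I genes, fell by 0.82. Leaving out treated mouse 1 or 2, or withdrawal mouse 1, left 1 gene higher, and leaving out treated mouse 3 or withdrawal mouse 2 left 2. The lower call was kept only when replicate 3 of either group was left out.

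**Figure D4:**
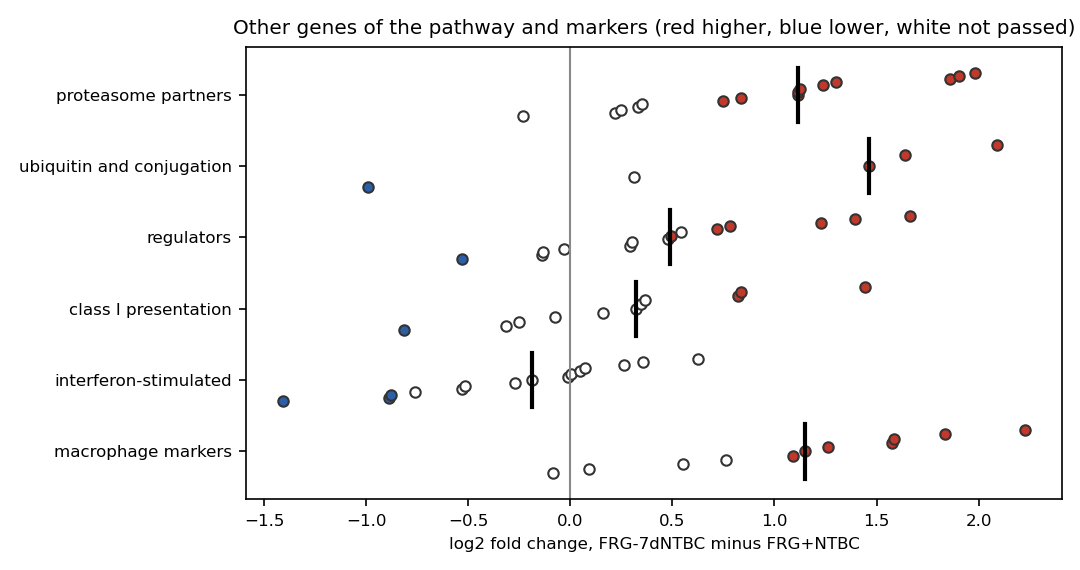
Horizontal axis, log2 fold change of withdrawal over treatment of the genes of 6 lists, 1 point per gene at its brightest probe set, with the list's median as a line (n = 3 mice per group). Red points passed limma as higher, blue as lower and white did not pass: 10 of 15 proteasome partners and 7 of 11 macrophage markers are red, and 3 of 15 interferon-stimulated genes are blue. Among all genes 17.4% were called higher and 12.7% lower.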

How the data were processed

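The authors corrected background, normalized by quantiles and summarized probe sets by median polish with Robust Multiarray Analysis. Transcriptome Analysis Console is the tool given in the submitters' processing notes, with no role stated there. As deposited, the intensities are linear, each equal within 0.0051 to 2 raised to a power with 2 decimals, so log2 values carry steps of that size. Log2 was taken and the groups were compared over all 45037 probe sets with limma 3.58.1 (lmFit, eBayes, no covariates) in R 4.3.3, with Benjamini-Hochberg adjustment over all of them and calls at an adjusted p under 0.05. The method was tested on simulated data. Probe sets were named by the array annotation (34945 with 1 symbol, 932 with several, 9160 with none). The genes named with values per array were the catalytic subunits, the 2 largest and the smallest changes of a role, genes at least 2-fold changed and genes with probe sets called in opposite directions, and some further members are given too. The alternatives were other scalings, filters, probe sets, variance models, array weights, a replicate block and leaving out each mouse. Members, lists and tests were chosen with earlier results of these data known. The mice are separate biological replicates by the labels, equal numbers mark no known pairing, and 3 arrays per group limit the precision. Lists hold fewer genes than written because some have no probe set with 1 symbol here: 4 of 19 partner names (Shfm1 being an older name of Sem1, which was measured), 1 of 15 regulators, 6 of 11 ubiquitin genes and 2 of 17 interferon-stimulated genes. Hepatocyte, endothelial, biliary and proliferation markers were read too. Of these, 0 of 4 hepatocyte, 2 of 5 endothelial, 0 of 4 biliary and 0 of 3 proliferation markers were higher, against 17.4% of all genes. Such short lists cannot be set apart from that share. The hepatocyte factor gene Hnf4a was lower. Promoters are from RefSeq (GRCm38.p6), searched on both strands.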

Additional observations from a re-analysis of the deposited data

How the results depend on the processing

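With 3 arrays per group, calls near the threshold depend on the model. Over 726 values of members under an alternative, 632 kept direction and side of the threshold, 50 lost the call, 23 gained it and 21 changed direction. The count of members higher (30) was 17 without moderation, 24 of 41 without suffixed probe sets and 23 to 33 without 1 mouse. Of the 24, 19 were among those 30. In these settings 9.15%, 17.1% and 12.3% to 18.0% of all genes were higher. Members lower (0) were 1 after 75th percentile scaling, quantile normalization, without suffixed probe sets or with the mean of all probe sets. In that order, 19.6%, 14.3%, 12.4% and 13.0% of all genes were lower. Scaling gave a median of 0.73 for all members and 1.07 for the alpha ring, and Psmb9 at -0.050. Quantile normalization gave 0.71 for all members, 0.87 for constitutive core, base and lid, 1.05 for the alpha ring and 0.67 for activators, with Psmb9 at -0.025 and Psmc4 at -0.010. Without suffixed probe sets the median was 1.46 for the alpha ring and 0.29 for the lid, 1 interferon-stimulated gene was lower, and Psmd11 stood at -0.18, Psmd6 at 0.73, Psmb3 at 1.94, Psmb1 at -0.013, Psmd13 at -2.03, Psmc6 at -0.23 and Psma3 at -0.55. The mean of all probe sets gave 0.64 for all members, 0.64 for constitutive core, base and lid, 1.08 for the alpha ring, 0.58 for the lid and 0.69 for activators, with Psmb3 at 0.71, Psmd13 at -0.13, Psmd6 at 0.29, Psmd9 at -0.54, Psmg3 at -0.072 and Psmc3ip at 0.028. Without moderation 1 class I gene and 1 macrophage marker were higher, and 0 class I and 0 interferon-stimulated genes were lower. Leaving out 1 mouse gave 1 to 4 class I genes higher and 0 to 1 lower, 0 to 1 interferon-stimulated genes higher and 0 to 3 lower, 2 to 8 macrophage markers higher and 0 to 1 regulators lower. The median then ranged from 0.76 to 1.02 for all members, 0.97 to 1.19 for constitutive core, base and lid and 0.73 to 1.03 for activators. Single genes that changed direction ranged from -0.037 to 0.36 (Psma6), -0.12 to 0.25 (Psmb9), -0.068 to 0.33 (Psmc4) and -0.13 to 0.66 (Psmd9). The lowest of Psma6 and Psmc4 came without FRG-7dNTBC replicate 3, that of Psmb9 without replicate 1 and that of Psmd9 without replicate 2 of that group. Leaving out suffixed probe sets or averaging them replaces the probe set of a gene by another measurement, and for the other settings the cause was not tested. The replicate block gave 29 members higher, where 16.7% of all genes were higher, and 0 class I genes lower. Same-numbered mice did not deviate together (r = 0.106, 0.0339 and -0.156).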
